A study of Sus scrofa with 8 samples.

Results

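Genes of fatty acid uptake and lipid droplets were followed in left ventricular tissue of 4 wild-type (WT) pigs and 4 gene-edited pigs. They were chosen by symbol from a list of 10, namely the capillary lipase LPL and its inhibitor ANGPTL4, the uptake genes CD36, SLC27A1 and SLC27A6, the cytosolic carriers FABP3 and FABP4, the droplet coat genes PLIN2 and PLIN5, and the droplet lipase PNPLA2. Of these 10, 9 had a row among the 14718 gene rows, and all 9 had enough reads to be tested among 11660 genes. CD36 is not analysed here. WT pigs carry the genotype label wt, and the mutant pigs a KCNH2 mutation in replicates 1 to 3. The label of mutant replicate 4 reads KCNH3, which the design text of the study does not mention. The sources used here name no strain, sex, age, treatment, kind of edit, founder clone or litter, and every pig, WT or mutant, has the entry somatic cell as its cell line. KCNH2 encodes the pore of a potassium channel that repolarizes the ventricle, and the study models long QT syndrome with it.

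The heart draws most of its energy from fatty acids. LPL, made by myocytes and carried to the capillary wall, frees them from circulating triglyceride, and ANGPTL4 inactivates LPL. Fatty acids then cross the endothelium and the myocyte membrane with the help of CD36 and of transport proteins of the SLC27 family, and FABP carriers take them through the cytosol. What is not burned at once is stored as triglyceride in droplets coated by perilipins, and PNPLA2, the adipose triglyceride lipase, releases it again. PPAR transcription factors, activated by fatty acids, induce many of these genes, ANGPTL4 and PLIN2 among them.

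Values are normalized counts, that is, reads of a gene divided by 1 size factor per library, and those of a group are listed in the order of replicates 1 to 4. They compare the same gene between libraries and not 1 gene with another, since they are not divided by transcript length. Libraries held 15.9 M to 22.4 M reads, and 13 mitochondrially encoded genes took 31.7% to 87.9% of these in WT and 15.9% to 27.5% in mutant libraries. WT replicates 3 and 4 stood apart, with 87.9% and 65.2%, which left 2.53 M and 7.53 M reads of nuclear genes against 11.5 to 16.2 M elsewhere. Differences are also given without these 2 libraries where they moved by more than 1.5 times or changed sign. The 7 cardiomyocyte markers with a row had a summed value of 434840 to 589996 in WT and, without overlap, 657134 to 714406 in mutant libraries. Of the 7 only the myosin gene MYH7 had groups without overlap (means of 127942 and 256660, DESeq2 adjusted p = 0.00161), TNNT2 (-0.32) and TNNI3 (-0.65) were lower in mutant libraries, and ACTC1 had 1752 in WT replicate 4 against 32209 to 234540 elsewhere. KCNH2 itself had 148 to 1909 normalized counts in WT and 798 to 1839 in mutant libraries, with overlap (exact two-sided permutation p = 0.257), and such totals per gene say nothing about which allele was read. Fewer cells of a type and less RNA per cell cannot be told apart in tissue RNA.

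ANGPTL4 was lower in all 4 mutant ventricles than in any WT ventricle, and LPL, the enzyme it inhibits, had mutant values inside the WT range. SLC27A1 and SLC27A6 had higher means in mutant libraries and PNPLA2 a lower one, each with overlapping groups. FABP4, PLIN2 and PLIN5 had mutant and WT values that overlapped widely. FABP3 had mutant values above WT replicates 2 to 4 and below WT replicate 1. None of the 9 genes passed limma at an adjusted p under 0.05, and neither did any gene of the table (0% of 11660). At an unadjusted p under 0.05 there were 2 of the 9, ANGPTL4 lower and SLC27A1 higher, against 13.9% of all genes tested. Groups did not overlap for 1 of the 9, ANGPTL4, against 11.4% of all genes. The count test DESeq2, run on the reads recovered from the values, called 1 of the 9, again ANGPTL4, against 4.56% of 12763 genes, while edgeR's quasi-likelihood test called 0 of the 9 and 0% of 11878 genes, with 2 of the 9 at an unadjusted p under 0.05. The authors' deposited table calls ANGPTL4 alone of the 9, against 4.54% of its genes. Of the 9 genes 5 had a higher and 4 a lower value in mutant libraries, and of all 11660 genes tested 6629 and 5031. The median log2 difference was 0.06 over the 9 genes and 0.12 over all genes tested, or 0.01 and 0.02 without WT replicates 3 and 4. These shares lie near those of all genes, and nothing particular to the list follows from them.

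**Figure D1:**
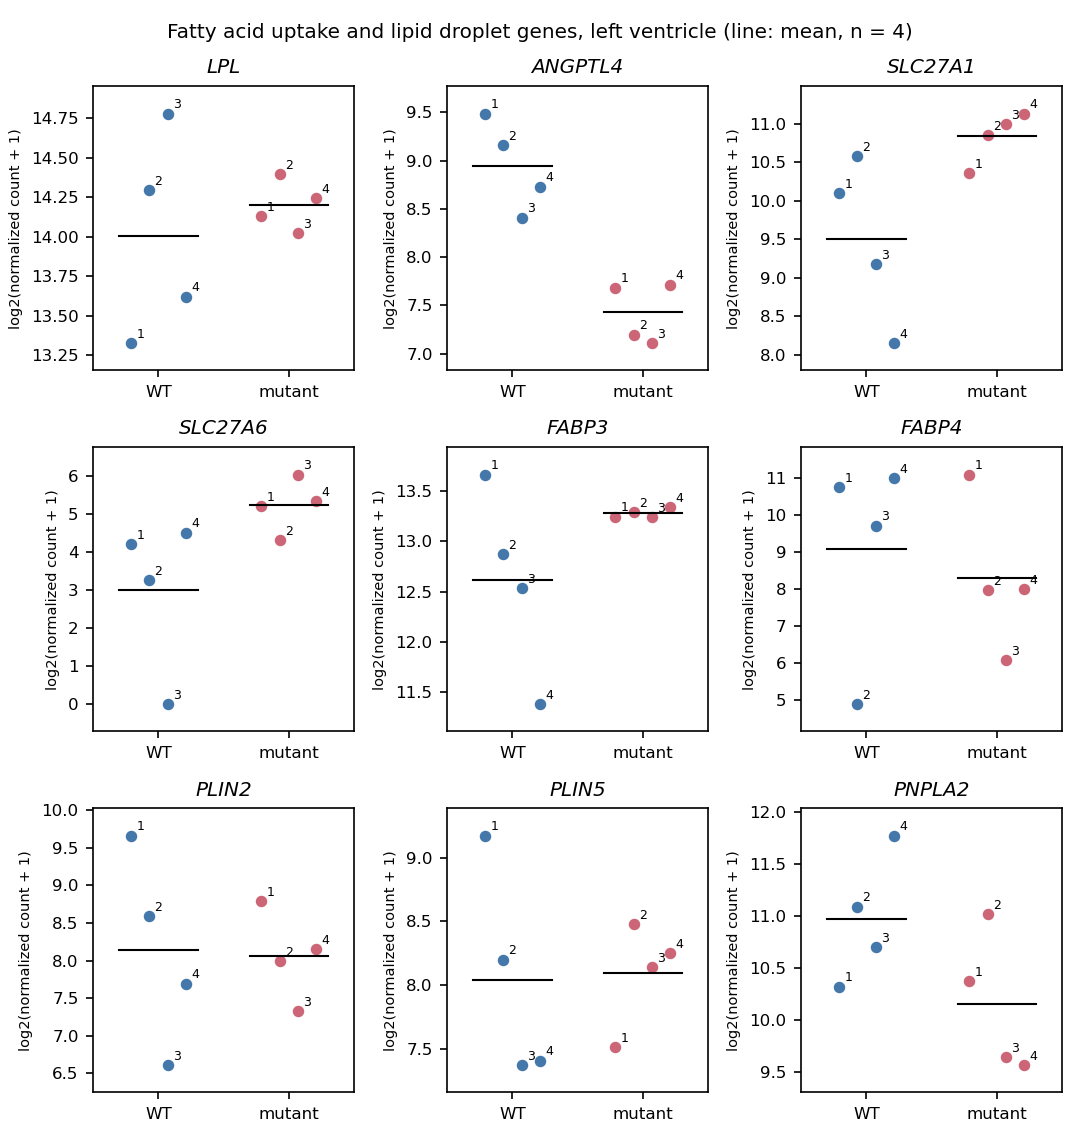
Log2(normalized count + 1) of each gene in the 4 WT and 4 mutant libraries; points are libraries, digits their replicate numbers and lines group means, and each panel has its own axis range. For ANGPTL4 the 4 mutant points lie below the 4 WT points, and for FABP3 and LPL the mutant points lie close together inside the WT range.

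Lipolysis at the capillary wall is represented by LPL and ANGPTL4. ANGPTL4 had 717, 573, 339 and 423 normalized counts in the WT pigs, and 205, 146, 137 and 209 in the mutant pigs. The lowest WT library was thus above the highest mutant library, and these values rest on 70 to 902 reads per library. The WT mean was 513 ± 167 and the mutant mean 174 ± 38.0 (SD, n = 4). The log2 difference was -1.52 ± 0.30 (SE), or 2.87-fold lower (95% interval of the log2 difference -2.20 to -0.84; limma adjusted p = 0.172). DESeq2 gave -1.57 (adjusted p = 0.000484) and edgeR -1.55 (adjusted p = 0.138), and the authors' deposited table gives -1.57 (adjusted p = 0.000481). Like ANGPTL4, the mitochondrial share of reads and the summed cardiomyocyte markers separated the groups without overlap. Their part in the ANGPTL4 difference was not tested. WT replicates 3 and 4 had the 2 lowest ANGPTL4 values of the WT group, and without them the difference was -1.90 (limma adjusted p = 0.0657). Without mutant replicate 4, the library labelled KCNH3, it was -1.62 (limma adjusted p = 0.569).

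LPL had 10287, 20092, 28156 and 12602 normalized counts in the WT pigs. In the mutant pigs it had 17963, 21601, 16664 and 19420, all inside the WT range. The log2 difference was 0.19 ± 0.34 (SE; 95% interval -0.58 to 0.96; limma adjusted p = 0.801). That interval includes changes of up to about 0.96 upward and 0.58 downward, and the sign of the difference turned without WT replicate 1 (-0.03). Without WT replicates 3 and 4 the difference was 0.39.

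The ratio of ANGPTL4 to LPL within a library hardly depends on its size factor, 1 normalized count being added to each gene. On the log2 scale it was -3.84, -5.13, -6.37 and -4.89 in the WT pigs and -6.45, -7.20, -6.91 and -6.53 in the mutant pigs. WT replicate 3, which had the highest LPL value of all libraries, lay next to the mutant libraries. The means were -5.06 ± 1.04 and -6.77 ± 0.35 (SD, n = 4), a difference of -1.71 without overlap (exact permutation test, two-sided, p = 0.0286, which is the lowest value that 70 assignments of the libraries can give; 0.171 after Benjamini-Hochberg adjustment over 6 ratios). Of the other 5 ratios, FABP3 to FABP4, PLIN5 to PLIN2, PLIN5 to PNPLA2, SLC27A1 to SLC27A6 and FABP4 to the endothelial gene PECAM1, all overlapped between the groups (exact permutation p = 0.286 to 0.800, adjusted p = 0.617 to 0.800). The mean difference in FABP4 to PECAM1 was -1.17, and -0.031 without WT replicates 3 and 4. For SLC27A1 to SLC27A6, where WT replicate 3 had 0 reads of SLC27A6, the added count matters. That mean difference was -0.90, and -1.17 with 0.5 added or -0.23 with 5 added.

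**Figure D2:**
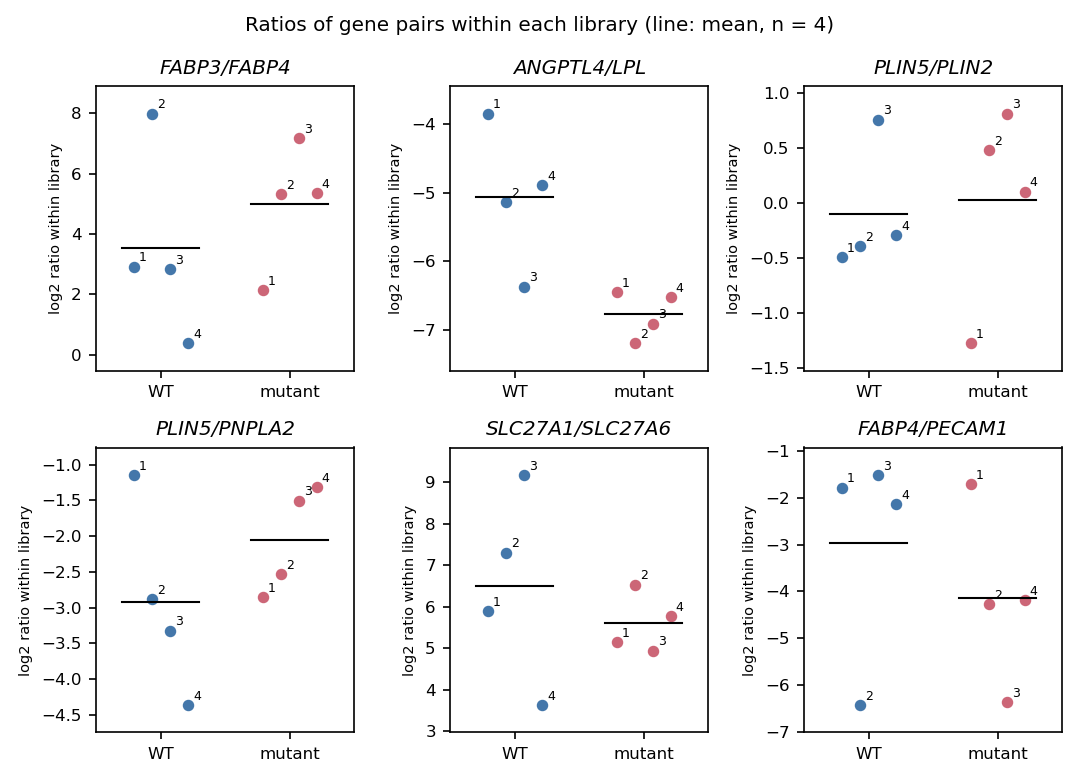
Log2 ratio of 2 genes within each library, for the 4 WT and 4 mutant libraries; points are libraries, digits replicate numbers and lines group means. Only the ratio of ANGPTL4 to LPL had groups that did not overlap, with WT at -6.37 or above and mutant libraries at -6.45 or below.

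Other genes around LPL are known to traffic, anchor or compete with it. Of 12 further genes of this role with a row, 11 were tested, 5 with a higher and 6 with a lower value in mutant libraries, with a median log2 difference of -0.21 that was -0.09 without WT replicates 3 and 4. None passed limma, and 2 had an unadjusted p under 0.05, both higher. SORT1, the sorting receptor sortilin, had 311, 269, 82.4 and 314 normalized counts in the WT pigs and 797, 573, 557 and 597 in the mutant pigs. All its mutant values lay above all WT values, with a log2 difference of 1.53 ± 0.42 (SE; limma adjusted p = 0.228; DESeq2 adjusted p = 0.0288). GPIHBP1, which anchors LPL on capillary endothelium, differed by -0.66 ± 0.39 (SE) with overlapping groups, and by -0.38 without WT replicates 3 and 4.

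Transport across the membrane is represented by SLC27A1 and SLC27A6, fatty acid transport proteins that also activate the acids they import. SLC27A1, which is common in muscle, had 1096, 1526, 576 and 284 normalized counts in the WT pigs and 1312, 1851, 2039 and 2241 in the mutant pigs. Of the 4 mutant libraries 3 lay above every WT library, and mutant replicate 1 lay below WT replicate 2. Means were 871 ± 551 and 1861 ± 399 (SD, n = 4). Mutant and WT differed by 1.33 ± 0.48 on the log2 scale (SE; 95% interval 0.26 to 2.40; limma adjusted p = 0.290). The 2 low WT libraries were replicates 3 and 4, those with the largest mitochondrial shares, and without them the difference was 0.50 (limma adjusted p = 0.414). DESeq2 called the gene only when WT replicate 2 was left out (adjusted p = 0.0321, against 0.193 with all libraries).

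SLC27A6, the family member described as the heart's own, was scarce in these libraries. Its reads numbered 22, 10, 0 and 18 in the WT pigs and 59, 25, 91 and 60 in the mutant pigs. WT replicate 3 had no read, and at its depth the 3 reads that a count of 0 allows would be worth 14.5 normalized counts. Normalized counts were 17.5, 8.64, 0 and 21.8 in WT and 36.0, 19.0, 65.1 and 39.7 in mutant libraries, so that only mutant replicate 2 overlapped with WT. The log2 difference was 2.23 ± 1.07 (SE; 95% interval -0.17 to 4.64; limma adjusted p = 0.386), 1.60 in DESeq2 (adjusted p = 0.174) and 1.23 without WT replicate 3. In the RefSeq table of the pig assembly Sscrofa11.1 an unnamed locus overlaps SLC27A6 and another overlaps PLIN2, and strand-specific counting is not stated, so their reads cannot be told apart from those of these genes.

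Of the carriers, FABP3 varied little among mutant libraries, and FABP4 varied widely in both groups. FABP3, the carrier of heart and skeletal muscle, had 12986, 7503, 5930 and 2667 normalized counts in the WT pigs and 9717, 9994, 9696 and 10363 in the mutant pigs. The mutant values lay within 1.07-fold of each other and inside a WT range of 4.87-fold. Their coefficient of variation was 3.13% against 59.3% in WT, and counting error alone was at most 2.86% (at 1224 reads, in WT replicate 3). On the log2 scale the groups differed by 0.67 ± 0.43 (SE; limma adjusted p = 0.484). Only WT replicate 1 lay above the mutant values. Without it the difference was 1.02 (limma adjusted p = 0.208) and the groups did not overlap, as for 20.4% of all genes. The difference was 0.25 without WT replicate 4, the lowest library, and 0.01 without WT replicates 3 and 4. The mean of those 2 libraries was 4298, against 10244 in WT replicates 1 and 2 and 9943 in mutant libraries.

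FABP4, the carrier of adipocytes, macrophages and capillary endothelium, had 1717, 28.5, 838 and 2060 normalized counts in the WT pigs and 2189, 251, 65.8 and 254 in the mutant pigs. Both groups held high and low libraries, and the 8 values spanned 76.8-fold, the widest range of the 8 genes that had reads in every library. The log2 difference of -0.81 ± 1.41 (SE; 95% interval -3.96 to 2.35; limma adjusted p = 0.799) was -2.21 without WT replicate 2, -1.74 without mutant replicate 1, -0.07 without mutant replicate 3 and 0.47 without WT replicates 3 and 4. Leaving out WT replicate 1 or 4 gave -0.25 or -0.17.

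Markers of the cells that can hold FABP4 were measured beside it. The 10 endothelial markers summed to 9539 to 44676 normalized counts in WT and 18878 to 28247 in mutant libraries, and none was at 0 in any library. PECAM1 had 5908, 2535, 2398 and 9014 in the WT pigs and 4672 to 7140 in mutant libraries. Per PECAM1, FABP4 was lowest in WT replicate 2 and mutant replicate 3, at -6.43 and -6.36 on the log2 scale, and highest in WT replicate 3, at -1.52, so that the spread stayed wide on this scale. Of the 7 adipocyte markers 6 had a row, summing to 329 to 1654 in WT and 230 to 1295 in mutant libraries. PLIN4, with 1123 normalized counts in mutant replicate 1, made up most of the highest mutant sum. The most defining adipocyte marker, the adipokine ADIPOQ, had 0 reads in 6 of the 8 libraries and 19 and 295 reads in mutant replicates 1 and 4. PLIN1, which coats the droplet of fat cells, had 0 to 7 reads in 7 libraries and 74 in mutant replicate 4. CIDEC, a droplet fusion gene, was at 0 only in WT replicate 3, as was the resistin gene RETN, whose 1740 reads in WT replicate 2 made up most of that library's sum. The 8 macrophage markers summed to 692 to 4370 in WT and 1177 to 3663 in mutant libraries, with CD68 and MRC1 at 0 in WT replicate 3. The part of these cells in the FABP4 values was not tested. Sums of neutrophil, fibroblast, smooth muscle and lymphocyte markers also overlapped between the groups. Red cell markers summed to 17243 to 31315 in WT replicates 1 to 3, to 49.7 in WT replicate 4 and to 2484 to 2950 in mutant libraries, so that they overlapped only through WT replicate 4. No gene of any marker list passed limma with all libraries. Without WT replicates 3 and 4, 2 of the 3 red cell markers passed it, against 0.105% of all genes, AHSP (-3.82, limma adjusted p = 0.0375) among them. DESeq2 with all libraries, which called 4.56% of all genes, called the smooth muscle gene TAGLN lower (adjusted p = 0.008). Of the 6 smooth muscle and pericyte markers, 3 had a higher and 3 a lower value in mutant libraries in limma. Their median log2 difference was -0.42, and 0.08 without WT replicates 3 and 4. FABP5, a related carrier, was also lowest in WT replicate 2, at 265 normalized counts against 2566 to 8338 in the other libraries.

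**Figure D3:**
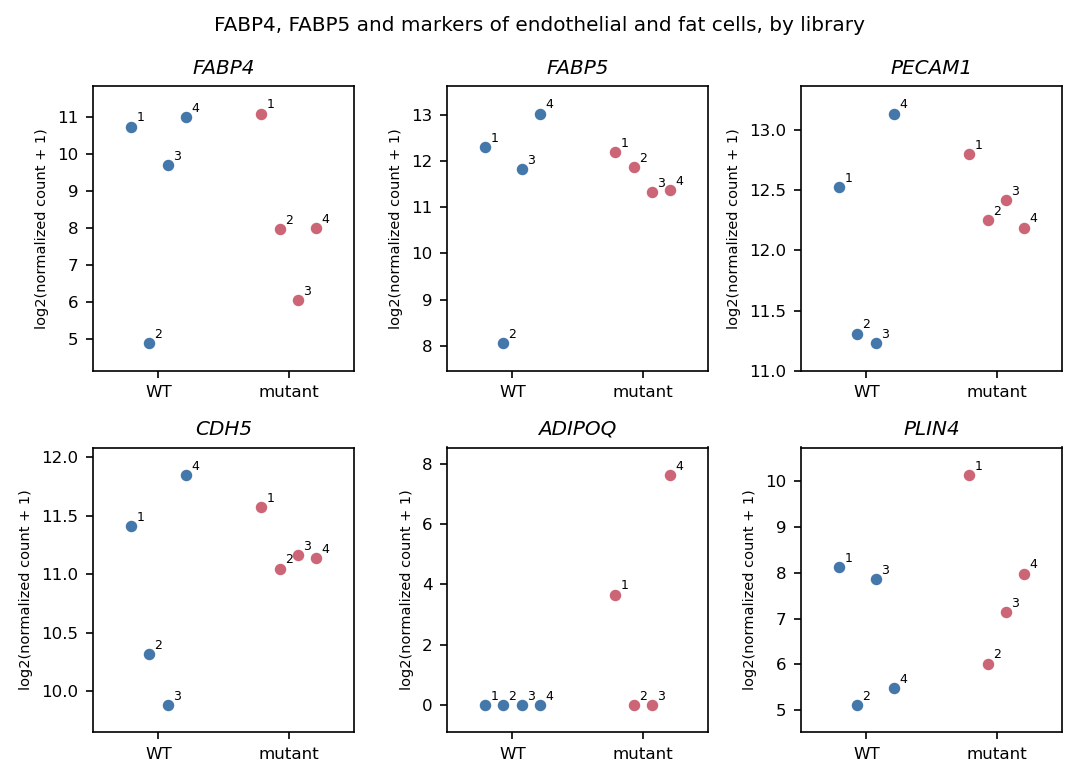
Log2(normalized count + 1) of FABP4 and FABP5, of the endothelial markers PECAM1 and CDH5 and of the fat cell genes ADIPOQ and PLIN4 in the 4 WT and 4 mutant libraries; points are libraries, digits replicate numbers, and each panel has its own axis range. FABP4 and FABP5 are lowest in WT replicate 2, and ADIPOQ is at 0 in 6 libraries.

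Among other uptake genes, 9 had a row and 5 were tested, of which 4 had a higher and 1 a lower value in mutant libraries, with a median of 0.36. GOT2, the mitochondrial aspartate aminotransferase that is also described as a fatty acid binder of the plasma membrane, differed by 0.76 ± 0.33 (SE; limma adjusted p = 0.347) and was the only one of them with an unadjusted p under 0.05. Without WT replicates 3 and 4 it differed by 0.45. SLC27A4 differed by 0.32, and by -0.19 without WT replicates 3 and 4. FABP5 differed by 0.38, with the opposite sign in DESeq2 (-0.35), and by 1.51 without WT replicates 3 and 4. FABP7, with 0 to 58 reads per library, differed by -1.08, and by -1.83 without those libraries.

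The droplet coat genes PLIN2 and PLIN5 had mutant values inside the WT range. PLIN2, a coat protein present in most cells that store lipid, had 810, 384, 96.9 and 206 normalized counts in the WT pigs and 440, 254, 159 and 283 in the mutant pigs. All mutant values lay between the lowest and the highest WT value. The log2 difference was -0.08 ± 0.60 (SE; 95% interval -1.42 to 1.27; limma adjusted p = 0.959), and it ran from -0.59 without WT replicate 3, where PLIN2 had only 20 reads, to 0.43 without WT replicate 1, and it was also above 0 without WT replicate 2 (0.07) or mutant replicate 3 (0.17). Without WT replicates 3 and 4 it was -1.06 (limma adjusted p = 0.309).

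PLIN5, the perilipin of oxidative tissues that tethers droplets to mitochondria, had 576, 293, 165 and 169 normalized counts in the WT pigs and 181, 355, 281 and 304 in the mutant pigs. The mutant values again lay inside the WT range, and WT replicate 1 was the highest library for PLIN2 and PLIN5 alike. The difference was 0.06 ± 0.43 (SE; 95% interval -0.90 to 1.01; limma adjusted p = 0.958) and took the opposite sign in DESeq2 (-0.11), without WT replicate 3 (-0.16), without WT replicate 4 (-0.15), without both (-0.59) and without mutant replicate 2 (-0.07). Within a library the ratio of PLIN5 to PLIN2 was lowest in mutant replicate 1, at -1.27 on the log2 scale, and lay between -0.49 and 0.81 in the other 7.

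Of the other droplet coat and assembly genes 12 had a row and 10 were tested, 5 higher and 5 lower, with a median of 0.07 that was -0.05 without WT replicates 3 and 4. FITM2, a membrane protein of the endoplasmic reticulum needed for droplet budding, had 2460, 865, 867 and 534 normalized counts in the WT pigs and 4296, 2829, 2784 and 4080 in the mutant pigs. Every mutant library lay above every WT library, with a log2 difference of 1.78 ± 0.43 (SE; limma adjusted p = 0.206; DESeq2 adjusted p = 0.0328), which was 1.23 without WT replicates 3 and 4. PLIN3, a perilipin shared with endosomal transport, differed by -0.79 ± 0.42 (SE), PLIN4 by 1.17 ± 0.96 (SE), and the droplet protein gene AUP1 by -0.27 ± 0.24 (SE), all with overlapping groups.

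Release from droplets is represented by PNPLA2, which removes the first fatty acid of triglyceride. It had 1275, 2173, 1657 and 3490 normalized counts in the WT pigs and 1322, 2068, 799 and 757 in the mutant pigs. Mutant replicates 3 and 4 lay below every WT library, and mutant replicates 1 and 2 inside the WT range. The log2 difference was -0.82 ± 0.41 (SE; 95% interval -1.73 to 0.09; limma adjusted p = 0.397), which was -0.55 without WT replicate 4, the highest library, and -0.55 without WT replicates 3 and 4. It was -1.11 without mutant replicate 2 and -1.04 without WT replicate 1 (limma adjusted p = 0.375 and 0.241).

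G0S2, a protein inhibitor of PNPLA2, had 50.1, 301, 136 and 118 normalized counts in the WT pigs and 20.8, 57.7, 45.0 and 49.0 in the mutant pigs. Only mutant replicate 2 reached above the lowest WT library. Mutant and WT differed by -1.60 ± 0.61 on the log2 scale (SE; limma adjusted p = 0.307; DESeq2 adjusted p = 0.0448). ABHD5, the activator of PNPLA2, differed by 0.56 ± 0.43 (SE) with overlapping groups, and by 0.20 without WT replicates 3 and 4. LIPA, the lysosomal acid lipase, had 38.8 to 248 normalized counts in WT and, without overlap, 292 to 431 in mutant libraries. The difference of 1.39 ± 0.55 (SE; limma adjusted p = 0.317) was 0.85 without WT replicates 3 and 4. MGLL, which completes triglyceride breakdown, differed by 0.36 ± 0.28 (SE), and by 0.14 without those libraries. Of 7 tested genes of droplet lipolysis other than PNPLA2, 5 had a higher and 2 a lower value in mutant libraries.

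**Figure D4:**
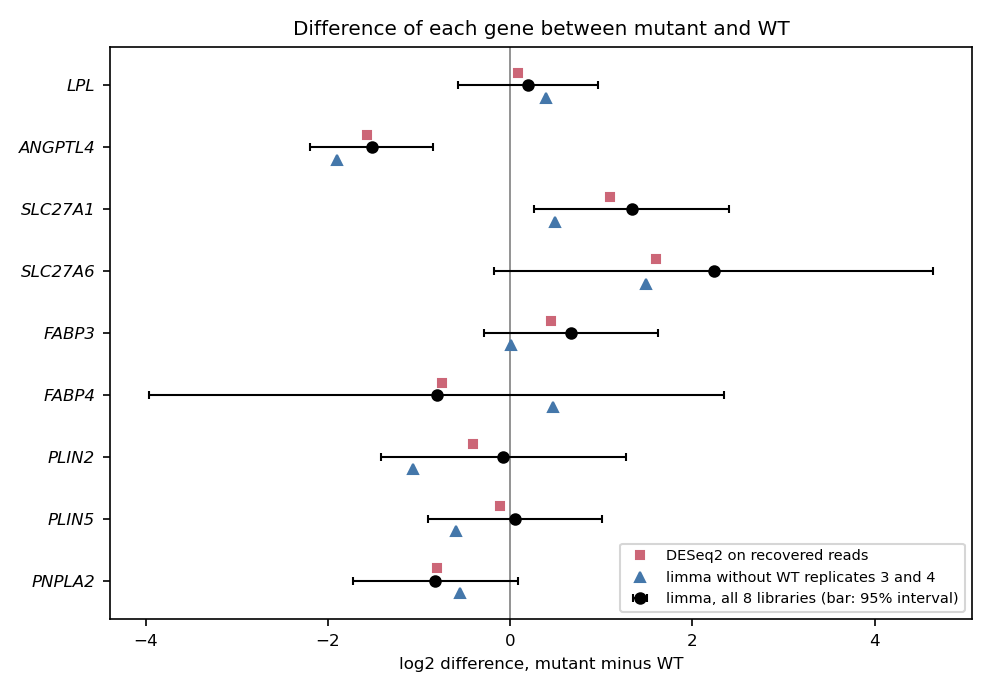
Log2 difference between mutant and WT for each of the 9 genes: circles with 95% intervals are limma on all 8 libraries, squares DESeq2 on recovered reads, and triangles limma without WT replicates 3 and 4. The intervals of ANGPTL4 (-2.20 to -0.84) and SLC27A1 (0.26 to 2.40) do not include 0 before adjustment over all genes.

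Genes that activate fatty acids with coenzyme A and that build triglyceride held no call in limma. Of 9 activation genes 4 had a higher and 5 a lower value, with a median of -0.17 that was 0.13 without WT replicates 3 and 4. ACSS2, the cytosolic acetyl-CoA synthetase, had 425, 409, 223 and 375 normalized counts in the WT pigs and 1108, 697, 755 and 690 in the mutant pigs. The groups did not overlap, and the log2 difference was 1.20 ± 0.28 (SE; limma adjusted p = 0.202; DESeq2 adjusted p = 0.00947). ACSL1, the main long-chain acyl-CoA synthetase of heart, differed by 0.99 ± 0.38 (SE; limma adjusted p = 0.312), and by 0.37 without WT replicates 3 and 4. ACSL6 differed by -1.02, and by -0.25 without those libraries, and ACBD3 by 0.24.

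Of 13 tested genes of triglyceride synthesis 11 had a higher and 2 a lower value in mutant libraries, as had 6629 and 5031 of all genes tested. Their median was 0.42, and 0.01 without WT replicates 3 and 4. AGPAT3, an acyltransferase of phosphatidate synthesis, differed by 1.07 ± 0.32 (SE; limma adjusted p = 0.246). MOGAT1, a monoacylglycerol acyltransferase, had 61.2, 44.1, 0 and 15.8 normalized counts in the WT pigs and 80.5 to 169 in the mutant pigs, again without overlap. Its fitted difference of 2.99 ± 1.19 (SE), which rests on a WT library at 0, was 1.14 without WT replicates 3 and 4. AGPAT1 and the phosphatidate phosphatase gene LPIN1 differed by 0.69 and 0.54, AGPAT1 by 0.01 without those 2 libraries.

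Regulators of the pathway had no member with an unadjusted p under 0.05 among 12, of which 9 had a higher and 3 a lower value, with a median of 0.21 that was -0.03 without WT replicates 3 and 4. PPARA, the fatty acid sensor of heart and liver, differed by 0.50 ± 0.38 (SE), and by 0.94 without those libraries. PPARGC1B, a coactivator of mitochondrial genes, differed by 0.77 ± 0.55 (SE). PPARD, which had 3 reads in WT replicate 3, differed by 0.98, and by -0.21 without WT replicates 3 and 4, and the estrogen-related receptor gene ESRRA by 0.45 and -0.14. Over all these lists together 75 genes outside the 9 had a row and 67 were tested. None passed limma, 9 were higher and 1 lower at an unadjusted p under 0.05 (14.9%, against 13.9% of all genes), and DESeq2 called 4, SORT1, ACSS2 and FITM2 higher and G0S2 lower, where it called 4.56% of all genes. Groups did not overlap for 5 of the 67, all higher in mutant libraries (7.46%, against 11.4% of all genes). Over all genes tested, 823 were higher and 793 lower at an unadjusted p under 0.05 in limma, and 719 were higher and 609 lower without overlap. The median log2 difference of the 67 was 0.32, and 0.005 without WT replicates 3 and 4.

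**Figure D5:**
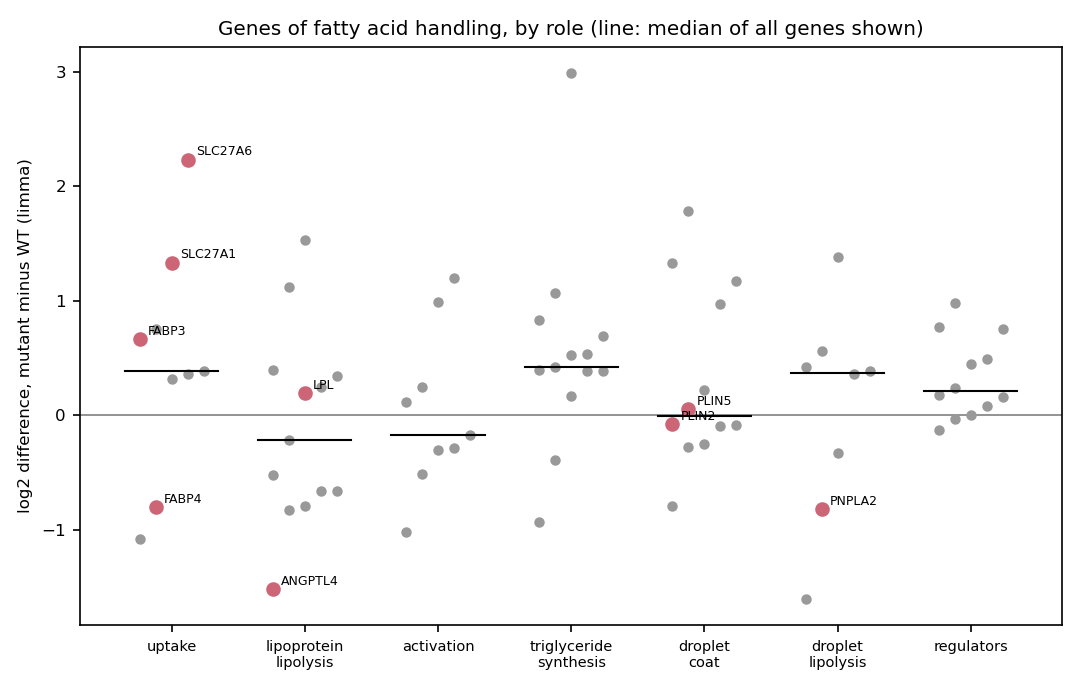
Log2 difference between mutant and WT (limma) of 76 genes of fatty acid handling, grouped by role; large red points are the 9 genes described here, grey points other genes of the role, and lines the median of all genes shown in a column. ANGPTL4 is the lowest point of its column, at -1.52, and SLC27A6 the highest of its column, at 2.23.

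The libraries that set the extremes differed from gene to gene. WT replicate 1 had the highest value of FABP3, ANGPTL4, PLIN2 and PLIN5, and the lowest of LPL. WT replicate 3 had the lowest value of SLC27A6, PLIN2 and PLIN5 and the highest of LPL, and WT replicate 4 the lowest of FABP3 and SLC27A1 and the highest of PNPLA2. On the log2 scale the SD among WT libraries was larger than among mutant libraries for 8 of the 9 genes, PNPLA2 being the exception, and for 84.3% of all genes tested. The mutant range lay inside the WT range for 4 of the 9, FABP3, LPL, PLIN2 and PLIN5, and for 39.2% of all genes tested.

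As a description of pattern, Pearson's r of log2(normalized count + 1) over the 8 libraries was computed against 10130 genes with a mean of at least 50. These r values carry the difference between the groups and the composition of the same 8 libraries. ANGPTL4 was most like the mitochondrially encoded ATP8 (r = 0.95), the mRNA decay factor gene ZFP36 (r = 0.94) and the 5_8S_rRNA row (r = 0.93). SLC27A1 was most like TM9SF4 and the sodium-calcium exchanger gene SLC8A1 (r = 1.00 and 0.99) and DOLK (r = 0.99). SLC27A6 was most like ST6GAL1, SNX11 and RARG (r = 0.98, 0.98 and 0.97), and PNPLA2 most like C1orf53, GSTK1 and CTSF (r = 0.97, 0.97 and 0.96). FABP3 was most like COX5A, a nuclear subunit gene of cytochrome oxidase, MMD and MRPL16 (r = 0.99, 0.99 and 0.98), and LPL most like IGF1R, JMY and ARAF (r = 0.93, 0.93 and 0.93).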

How the data were processed

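Poly(A) RNA libraries of left ventricle from 4 WT and 4 mutant pigs were made with random-primed cDNA, per the labels' protocols. The deposited signal values are read counts divided by 1 size factor per library, with log2 fold changes, Wald score and p-values from the authors' DESeq2 comparison, per the file headers and the submitters' processing notes, which name the human build GRCh38. The aligner, counter and annotation were not given in the sources used here. No coordinates are therefore printed. All values were whole multiples of 1 read (100% within 1e-06 reads), so reads were recovered. The 2 of 14720 rows that name no gene (0.392% to 0.853% of reads) were left out. Of 14718 rows 14504 matched a pig symbol.

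Genes with at least 10 normalized counts in at least 4 libraries were fitted as log2(value + 1) in R 4.3.3 with limma 3.58.1, using its trend and robust options. For low genes a larger pseudocount makes a fold change look smaller. The log2 difference of SLC27A6 was 2.50 with a pseudocount of 0.5 and 1.56 with 5. With a WT library at 0, SLC27A6 (2.23) and MOGAT1 (2.99) still had larger differences in limma than in DESeq2 (1.60 and 1.90). P-values were Benjamini-Hochberg adjusted over all genes. Ratios and KCNH2 used exact permutation tests (scipy 1.17.1). DESeq2 1.42.0 and edgeR 4.0.16 on recovered reads, other scalings, filters, pseudocounts and left-out libraries were alternatives. DESeq2 with libraries left out was added after the data were seen. On counts simulated for 4 against 4 libraries limma recovered 98.9% of 91 genes changed by 2 on the log2 scale and 58.7% of 109 changed by 1, among 11949 genes. The simulated counts had the same dispersion for all genes and for both groups. In the real libraries the median log2 SD over all genes tested was 0.70 in WT and 0.33 in mutant. The recovery therefore does not measure the power of the test in these libraries. The genes and lists were chosen with earlier results of these data known. Named genes are the 9 members, up to 4 of each pathway list with the smallest p and any called, the first 3 of a marker list and those at 0, and the 3 most similar genes of the 4 members with the smallest p and the 2 with the highest mean. Proteins and promoters, also part of that rule, are not analysed here. Some genes that the rule names in the lipoprotein list are not reported here. The labels number the pigs separately but give no litter, extraction or sequencing batch, so p-values reflect only how these 8 libraries vary, which may be technical.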

Additional observations from a re-analysis of the deposited data

Results flagged for a closer look

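In a group of 4 libraries a value was singled out by its gap to the nearest other library. The gap had to take a larger part of the group's range than Dixon's critical value at 95%. Chance passes this in about 1 of 20 groups when values are normally distributed. Genes were looked at as normalized counts, which can be skewed, and not on the log2 scale. Ratios were looked at as log2 values. Of 32 groups looked at, 4 held such a value. FABP4 in mutant replicate 1 had 2189 normalized counts against 65.8 to 254 in the other mutant libraries. The log2 ratio of FABP4 to PECAM1 in WT replicate 2 was -6.43 against -2.13 to -1.52 in the other WT libraries. The log2 ratio of PLIN5 to PLIN2 in WT replicate 3 was 0.76 against -0.49 to -0.29. KCNH2 in mutant replicate 1 had 798 normalized counts against 1751 to 1839 in the other mutant libraries.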

How the results depend on the processing

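The 9 genes held no call in limma. ANGPTL4 alone was called by DESeq2 (4.56% of all genes), by limma with array quality weights (0.789%) and by DESeq2 without WT replicates 3 and 4 (5.55%). With single libraries left out the count was 0 in limma (0% to 0.026% of all genes) and 1 to 2 in DESeq2 (1.00% to 8.04%). It was 2 without WT replicate 2, where DESeq2 called 5.51% of all genes. ANGPTL4 was called in 10 of 10 DESeq2 fits (adjusted p = 1.15e-06 to 0.0193) and in 1 of 19 limma or edgeR fits (adjusted p = 0.0426 to 0.569), and its difference was negative in all of them (-1.90 to -1.34). Pathway genes outside the 9 numbered 0 in limma, 4 in DESeq2, 2 in DESeq2 without WT replicates 3 and 4, and 0 to 8 with single libraries left out, where DESeq2 called 1.00% to 8.04% of all genes (8.04% without WT replicate 1, the fit with 8). At an unadjusted p under 0.05 the count of members was 4 with array quality weights (19.4% of all genes) and 1 to 4 with single libraries left out (7.92% to 18.8%). Members whose groups did not overlap numbered 2 without WT replicates 3 and 4 (SLC27A6 beside ANGPTL4) and 1 to 2 with single libraries left out, and the share of all genes without overlap was then 29.2% and 12.1% to 20.4%. The sign of PLIN5 turned in DESeq2 (-0.11), edgeR (-0.10), with array weights (-0.22), without WT replicates 3 and 4 (-0.59, or -0.64 in DESeq2) and within a left-out range of -0.31 to 0.44. PLIN2 turned after rescaling to nuclear reads (0.0061) and ran from -0.72 to 0.43, LPL from -0.10 to 0.45, FABP4 was 0.47 and FABP3 in DESeq2 -0.057 without WT replicates 3 and 4. Among ratios, FABP3 to FABP4 was -0.46 and PLIN5 to PNPLA2 -0.037 without WT replicates 3 and 4, and PLIN5 to PLIN2 ran from -0.13 to 0.57. The cause of these turns was not tested. The median log2 difference of all genes was 0.12, against 0.02 after quantile and 0.20 after nuclear rescaling and -0.06 in DESeq2. Depth limits SLC27A6, with 0 to 91 reads, and WT replicate 3 in general. No paired analysis was possible because the labels give no replicate numbers that the groups share.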
